A study of Komagataella pastoris with 3 samples.

Results

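The data were messenger RNA levels of the 3 genes of formaldehyde dissimilation, FLD1, FGH1 and FDH1, in the yeast Pichia pastoris GS115, now usually placed in Komagataella phaffii. The 3 genes were picked by locus tag from a table of 5040 genes: PAS_chr3_1028 for FLD1, PAS_chr3_0867 for FGH1 and PAS_chr3_0932 for FDH1. All 3 tags were found, and the tags place them on chromosome 3. The genes were chosen by their place in one pathway with their values in this table already known, so every level and difference below is a description and none is a test. The genotype was given as wild type by the submitters. Cells were grown at 30 °C with shaking in YPD (yeast extract, peptone and glucose), and were collected after 24, 36 and 48 h. One library was made per time point, so no value has a replicate error and each comparison is one between 2 libraries. Levels are in FPKM, a gene's fragments divided by its length and by the library's mapped fragments, which allows genes of different length to be set side by side within a library. Sequencing depth is unknown.

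Formaldehyde dissimilation is the branch of methanol metabolism that burns the carbon to carbon dioxide in place of building it into biomass. Alcohol oxidase turns methanol into formaldehyde in the peroxisome, and formaldehyde that leaves the assimilation route reacts with glutathione in the cytosol. Formaldehyde dehydrogenase, the product of FLD1, oxidizes the glutathione adduct to S-formylglutathione and makes NADH. S-formylglutathione hydrolase, from FGH1, splits this to formate and frees the glutathione. Formate dehydrogenase, from FDH1, oxidizes formate to carbon dioxide and makes a further NADH. In this yeast the genes of methanol metabolism are known for strong expression on methanol and low expression in excess glucose, and the pathway also clears formaldehyde formed from other sources. No methanol was listed among the medium's components, and concentrations of glucose, ethanol or methanol in the culture were not used here.

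The deposited table gives tags without gene names or functions, so the names are those attached to the tags when the genes were chosen. Sequences of the 3 genes were not used here. The order of the genes could be set beside the annotation of a related species, Komagataella pastoris ATCC 28485 (assembly ASM170810v1), whose 5305 genes share 0 tags with the table. That annotation gives each of SFA1, FDH1 and YJL068C to 1 gene, under symbols that in Saccharomyces cerevisiae stand for a formaldehyde dehydrogenase, a formate dehydrogenase and an S-formylglutathione hydrolase. All 3 lie on its chromosome 3, in the order SFA1, FDH1, YJL068C, with 99 genes between SFA1 and FDH1 and 74 between FDH1 and YJL068C. In the table, sorted by tag number, 91 genes lay between FDH1 and FLD1 and 60 between FGH1 and FDH1. Formate dehydrogenase thus sat between the other two enzymes in both orders, with the wider gap on the side of formaldehyde dehydrogenase. By rising tag number the order in the table is the reverse of that in the annotation, and the gaps differ in size. The table has 1178 genes on chromosome 3 and the annotation 1021. What is shared with the other species is only the middle gene and the side of the wider gap, which does not itself name the tags.

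All 3 genes were higher at each later time, but they started from very different levels. FDH1 differed far more than the other two between 24 and 36 h. FLD1, which encodes the first enzyme, had 419, 1155 and 2582 FPKM at 24, 36 and 48 h. It was already an abundant transcript at 24 h, above 94.0% of the genes of the table, and counted from the top it took places 304, 88 and 32 in the successive libraries. FGH1, for the middle enzyme, had 78.1, 178 and 896 FPKM at 24, 36 and 48 h. Its level lay above 63.4%, 83.6% and 97.6% of genes in the same order of times, and it was the least abundant of the 3 at both later times. FDH1, for the last enzyme, had 6.05, 6497 and 14606 FPKM at 24, 36 and 48 h. At 24 h only 79 genes, 1.57% of the table, were lower than FDH1. At 36 h it was the 10th most abundant transcript, and at 48 h it was the most abundant.

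**Figure D1:**
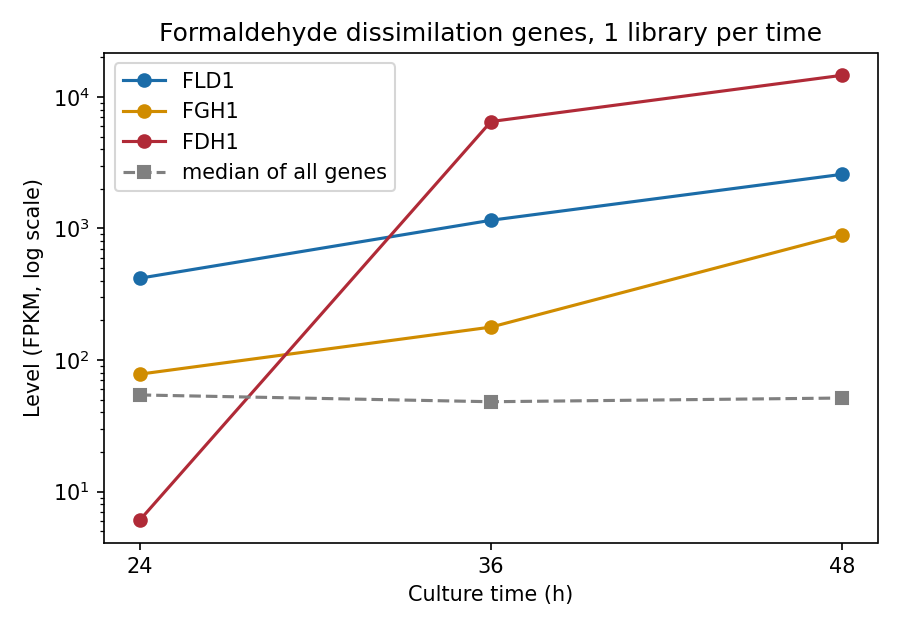
FPKM on a log axis against culture time in h, with 1 point per gene and library; the dashed line is the median of all 5040 genes. FLD1 and FGH1 lie above the median throughout and are higher at each later time, FGH1 more steeply after 36 h, while FDH1 lies below the median at 24 h (6.05 FPKM) and above both other genes at 36 h (6497 FPKM) and 48 h (14606 FPKM).

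The order of the 3 genes therefore differed between the first library and the later ones. At 24 h the order from high to low was FLD1, FGH1, FDH1, and at 36 and 48 h it was FDH1, FLD1, FGH1. Whether neighbours in these orders differ beyond their spread cannot be told, as no spread was measured; the smallest gap between neighbours was 2.88-fold, between FLD1 and FGH1 at 48 h. The median gene of the table had 54.3, 48.2 and 51.4 FPKM at 24, 36 and 48 h, so FDH1 was below the median gene at 24 h and the other two were above it in every library. Of the total FPKM of a library, the 3 genes together took 0.0577%, 0.996% and 2.38% at 24, 36 and 48 h. Within this joint amount the main transcript was FLD1 in the first library and FDH1 in the later ones. FLD1 made up 83.3%, 14.7% and 14.3% of it at these times. FDH1 made up 1.20%, 83.0% and 80.8% at 24, 36 and 48 h. FGH1 made up 15.5%, 2.27% and 4.96% at these times.

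The first comparison asked how the 36 h library differed from that of 24 h. Differences were taken on the log2(FPKM + 1) scale, which understates those of low genes, and a gene was called higher when its difference was at least 1, a 2-fold rule of size. All 3 genes were called higher at 36 h, where 9.47% of the 5028 genes with at least 1 FPKM in some library were. The values that make up this count were known when the genes were chosen, so nothing is read from it. The median of all genes was -0.21 in this comparison. FLD1 differed by 1.46, a 2.76-fold higher level at 36 h than at 24 h. FGH1 differed by 1.18, or 2.28-fold. FDH1 differed by 9.85, and its FPKM was 1074-fold higher, a ratio that rests on the low 24 h value of 6.05 FPKM. At least 4-fold higher levels were seen for FDH1 and neither of the other two, against 2.61% of all genes. Measured from the median gene, the differences were 1.67 for FLD1, 1.39 for FGH1 and 10.06 for FDH1.

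From 36 to 48 h FLD1 and FDH1 differed by nearly the same factor, and FGH1 by a larger one. All 3 genes were again called higher, with 13.5% of all genes. FLD1 was 2.24-fold higher at 48 h than at 36 h, a log2 difference of 1.16. FDH1 was 2.25-fold higher, a log2 difference of 1.17. FGH1 was 5.03-fold higher, a log2 difference of 2.33, and it was the only one of the 3 past 4-fold, where 2.82% of all genes were. Among the 5028 genes the difference of FGH1 took place 93 from the top, that of FDH1 place 522 and that of FLD1 place 529. The difference between the factors of FGH1 and the other two could not be tested with 1 library per time.

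Over the whole course the levels of all 3 genes at 48 h were 4-fold or more above those at 24 h, against 6.78% of all genes, while 18.2% of all genes passed the 2-fold rule upwards. This comparison shares its libraries with the other two. FLD1 was 6.17-fold higher, with a log2 difference of 2.62 at place 195 of 5028 genes. FGH1 was 11.5-fold higher, with a log2 difference of 3.50 at place 108. FDH1 was 2414-fold higher, with a log2 difference of 11.02 at the top of the table, where the next gene had 8.23. A level at least 2-fold higher in both intervals was found in all 3 genes and in 2.59% of all genes.

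**Figure D2:**
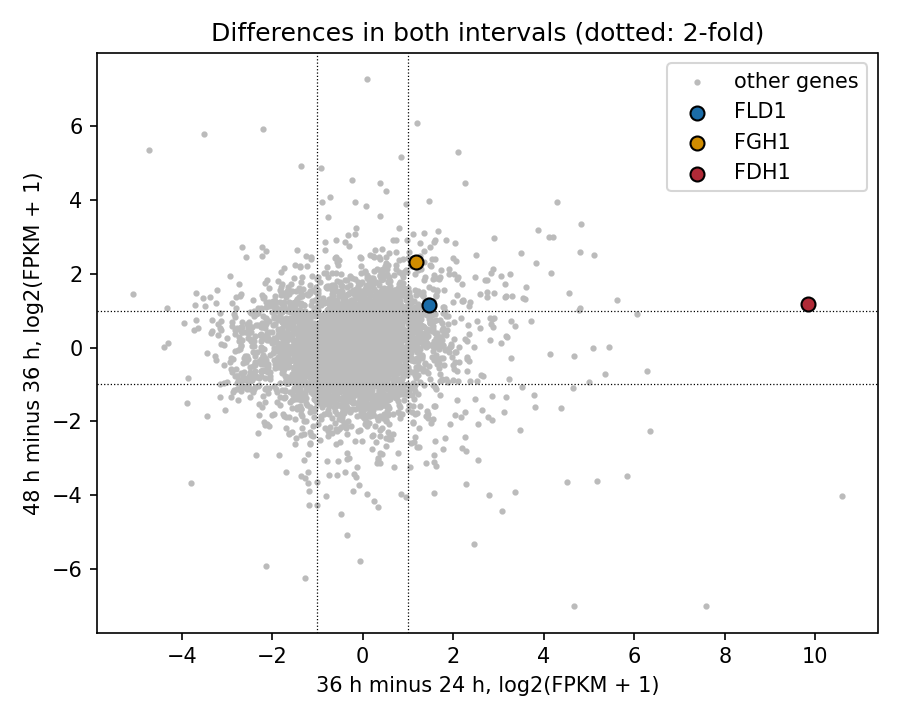
Each point is 1 of 5028 genes, placed by its log2(FPKM + 1) difference of 36 h minus 24 h (x axis) and of 48 h minus 36 h (y axis); dotted lines mark 2-fold. FLD1 (1.46 and 1.16), FGH1 (1.18 and 2.33) and FDH1 (9.85 and 1.17) lie in the upper right field, past 2-fold on both axes, FDH1 far to the right.

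The 36 h level was 44.7% of the 48 h level for FLD1, 19.9% for FGH1 and 44.5% for FDH1, so FLD1 and FDH1 stood nearly alike in this share. The part of the increase over 24 h that was in place by 36 h is another quantity, since it leaves out the level at 24 h. FDH1 had reached 44.5% of its FPKM increase between 24 and 48 h by 36 h, FLD1 34.0% and FGH1 12.2%. On the log2 scale, which weighs factors and not amounts, 89.4% of the FDH1 difference, 55.7% of the FLD1 difference and 33.6% of the FGH1 difference fell before 36 h. FGH1, the enzyme between the other two in the pathway, thus had the lowest value of the 3 in each of these measures.

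Ratios between the genes within a library do not depend on how libraries are scaled to each other. FDH1 over FLD1, the last enzyme over the first, was 0.0145, 5.63 and 5.66 at 24, 36 and 48 h. FLD1 was thus the higher of these 2 genes at 24 h and FDH1 at both later times, by nearly the same factor at 36 and 48 h. FDH1 over FGH1 was 0.0775, 36.5 and 16.3 at 24, 36 and 48 h. FLD1 over FGH1, the first enzyme over the second, was 5.36, 6.49 and 2.88 at 24, 36 and 48 h. The first and second enzyme thus kept their order in every library, with FLD1 transcripts in excess of FGH1 transcripts.

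**Figure D3:**
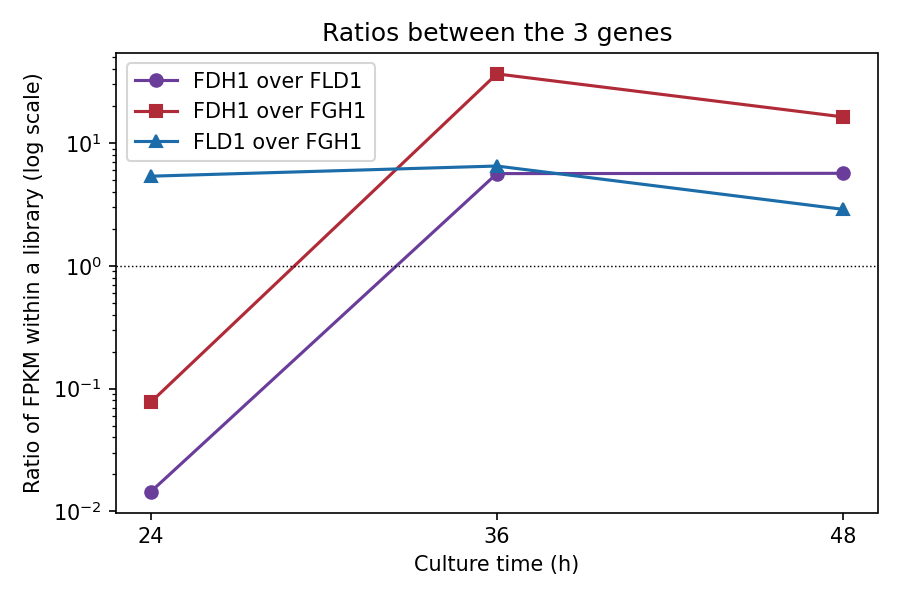
Ratios of FPKM between pairs of the 3 genes within each library, on a log axis against culture time in h; the dotted line marks equal levels. FDH1 over FLD1 is 0.0145 at 24 h and 5.63 and 5.66 at 36 and 48 h, while FLD1 over FGH1 stays between 2.88 and 6.49.

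The low 24 h level of FDH1 was set beside that of other genes. At or under 10 FPKM at 24 h were 189 genes, whose medians were 6.67, 7.19 and 9.68 FPKM at 24, 36 and 48 h. Of these genes 2 had at least 1000 FPKM at 36 h and 3 at 48 h, FDH1 among them at both times. The other gene at 36 h was PAS_chr4_0065, with 7.68, 13379 and 820 FPKM at 24, 36 and 48 h. Its log2 difference of 10.59 for 36 h against 24 h was the one value above that of FDH1, and the third largest in the table was 7.59. PAS_chr4_0065 was 4.03 lower on the log2 scale at 48 h than at 36 h, where FDH1 was 1.17 higher. PAS_chr3_0836, the largest of the other low starters at 48 h, had 2356 FPKM there, and FDH1 was 6.20-fold above it. The limit of 10 FPKM was arbitrary. A little above it at 24 h, PAS_chr1-4_0538 had 13.9, 1001 and 1864 FPKM at 24, 36 and 48 h. PAS_chr2-2_0267 had 14.0, 740 and 1806 FPKM at the same times. How many other genes a little above the limit took such a course was not counted. Of 102 genes that reached 1000 FPKM or more at 48 h, none had a lower 24 h level than FDH1, and their median at 24 h was 281 FPKM. FLD1 stood at place 65 of these 102 genes, counted from the lowest 24 h level. The second most abundant transcript at 48 h, PAS_chr2-1_0472, had 7055, 16505 and 13308 FPKM at 24, 36 and 48 h, so FDH1 exceeded it 1.10-fold at 48 h. PAS_chr4_0065, PAS_chr3_0836 and PAS_chr2-1_0472 were named after their values were seen, and their functions are not given in the table.

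Profiles most like those of the 3 genes were sought by the distance between both interval differences, in log2 units over 3 libraries, among 4950 other genes with at least 10 FPKM in some library and no value listed at 0. FGH1 had the closest partners. PAS_chr3_0761 lay at a distance of 0.04, with 82.8, 192 and 939 FPKM at 24, 36 and 48 h, which is also close to FGH1 in level. PAS_chr2-2_0276 lay at 0.05, with 34.6, 81.8 and 423 FPKM at 24, 36 and 48 h. PAS_chr3_0778 lay at 0.08, with 83.2, 199 and 1036 FPKM at 24, 36 and 48 h. In all, 29 genes lay within 0.5 of FGH1.

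FLD1 had more genes near its profile, and the 3 nearest were less abundant than FLD1 itself. PAS_chr2-2_0371 was at a distance of 0.12, with 19.1, 56.5 and 119 FPKM at 24, 36 and 48 h. PAS_chr1-1_0489 was also at 0.12, with 56.4, 153 and 371 FPKM at 24, 36 and 48 h. PAS_chr3_0032, again at 0.12, had 8.09, 23.9 and 59.6 FPKM at 24, 36 and 48 h. Within 0.5 of FLD1 lay 69 of the 4950 genes compared, which changed by amounts close to those of FLD1. Which 3 of them came out nearest changed with the pseudocount: with 0.1 in place of 1, only 1 of these 3 remained among the nearest 3, and likewise with 10.

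No gene of the table lay close to FDH1 by this measure. Its nearest gene, PAS_chr1-4_0538, was at a distance of 3.79, with 13.9, 1001 and 1864 FPKM at 24, 36 and 48 h, a 71.9-fold higher level at 36 h than at 24 h and a 1.86-fold higher level at 48 h than at 36 h. PAS_chr4_0832 followed at 3.99, with 11.7, 985 and 635 FPKM at 24, 36 and 48 h. PAS_chr2-2_0267 was at 4.22, with 14.0, 740 and 1806 FPKM at 24, 36 and 48 h. Within 1 log2 unit of FDH1 lay 0 genes, while 322 lay that near to FLD1 and 131 to FGH1. The 3 enzymes were not among each other's nearest genes either. FGH1 was at a distance of 1.20 from FLD1, where 530 genes were nearer to FLD1 and 192 nearer to FGH1. FDH1 was at 8.39 from FLD1 and 8.75 from FGH1. Seen from FDH1, 208 of 4950 genes were nearer than FLD1 and 348 nearer than FGH1. By contrast, 4946 genes were nearer to FLD1 than FDH1 was, and 4945 nearer to FGH1. Distances over 3 libraries say how alike the values were and nothing on shared function or control.

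**Figure D4:**
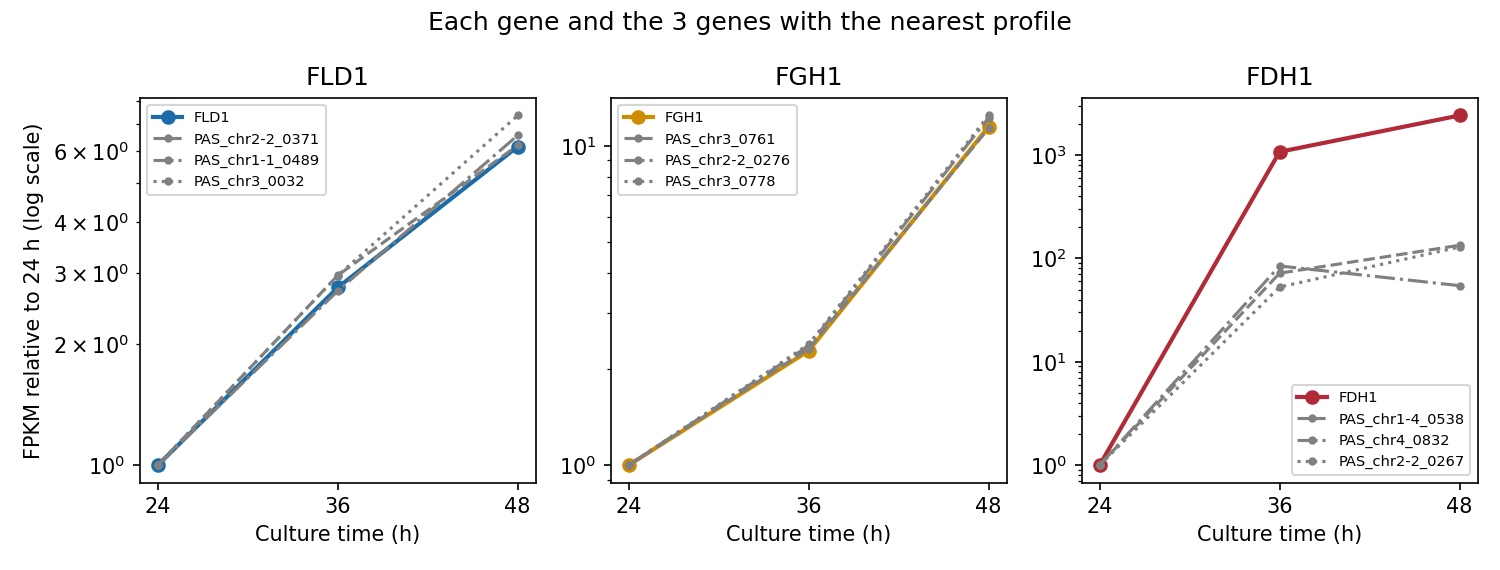
FPKM relative to 24 h (log axis) against culture time in h for each of the 3 genes (coloured line) and its 3 nearest genes by profile (grey lines). The grey lines run near FLD1 and FGH1, less so for the low gene PAS_chr3_0032 (7.37-fold at 48 h, where FLD1 is at 6.17-fold) since distances were taken on the log2(FPKM + 1) scale, while those beside FDH1 stop at 84.5-fold or less at 36 h, where FDH1 stands at 1074-fold.

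The genes on either side of the 3 loci, taken as the 2 tags before and after each, mostly did not share their course. Beside FLD1, PAS_chr3_1029 had 11.2, 29.5 and 79.5 FPKM at 24, 36 and 48 h, with log2 differences of 1.33 and 1.40 in the successive intervals. It was the 13th nearest of the 5039 other genes of the table to FLD1 by profile, at a distance of 0.28, at a far lower level. On the other side, PAS_chr3_1027 had 32.0, 13.0 and 24.1 FPKM at 24, 36 and 48 h. The outer tags PAS_chr3_1026 and PAS_chr3_1030 were between 12.6 and 62.9 FPKM in every library and within 2-fold in both intervals. The strand used in counting is not given in the sources used here, and whether these loci overlap was not examined.

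Around FGH1 the neighbours took other courses. PAS_chr3_0868 was highest at 36 h, with 348, 1658 and 308 FPKM at 24, 36 and 48 h. PAS_chr3_0866, a low gene, had 11.9, 12.2 and 36.5 FPKM at 24, 36 and 48 h. PAS_chr3_0865 had 117, 234 and 161 FPKM at 24, 36 and 48 h, and PAS_chr3_0869 had 78.7, 60.6 and 26.5 FPKM at these times. None of these 4 was at least 2-fold higher in both intervals, as FGH1 was. Only 2.59% of all genes were, so nothing is read from this.

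Next to FDH1, PAS_chr3_0931 had 93.3, 400 and 147 FPKM at 24, 36 and 48 h, and PAS_chr3_0930 had 69.9, 214 and 101 FPKM at the same times. Both passed the 2-fold rule upwards at 36 h and downwards at 48 h against 36 h, where FDH1 was higher. On the other side, PAS_chr3_0933 stayed between 55.3 and 73.6 FPKM and PAS_chr3_0934 between 14.7 and 24.1 FPKM. A step as large as that of FDH1 was thus not seen in the tags beside it. Between 36 and 24 h they differed by at most 2.09 on the log2 scale. That value, of PAS_chr3_0931, was past 4-fold, as were 2.61% of all genes. PAS_chr3_0930 differed by 1.60, and 9.47% of all genes were past 2-fold.

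**Figure D5:**
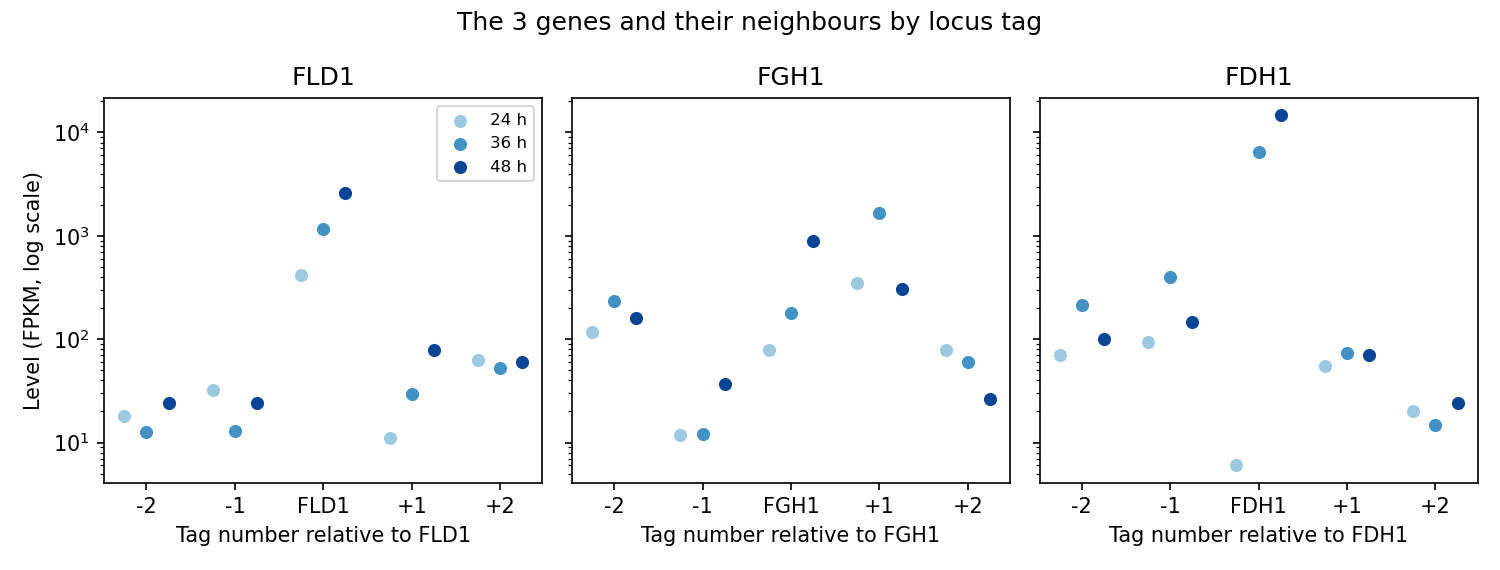
FPKM on a log axis at 24, 36 and 48 h (light to dark points) for each of the 3 genes and the 2 tags on either side, ordered by tag number. FDH1 spans from 6.05 to 14606 FPKM while its 4 neighbours stay between 14.7 and 400 FPKM, and among the neighbours of FLD1 the gene at +1 climbs in each library.

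Some values of the whole table bear on these comparisons. Total FPKM was 871921, 785727 and 760684 at 24, 36 and 48 h, so the same FPKM stands for a slightly larger share of the total at later times. By the 2-fold rule 476 genes of the table were higher and 973 lower in the 36 h library than in that of 24 h, a split that became 647 and 729 when libraries were scaled by the median of ratios. For the 48 h library against that of 24 h the split was 914 and 1409, or 1115 and 1137 with that scaling. With 3 other scalings, the difference of each of the 3 genes from the median gene moved by at most 0.03. Each scaling divides all genes of a library by the same factor, so this follows from the arithmetic and is no sign of stability. Not measured from the median gene, the FLD1 difference for 36 h against 24 h was 1.46 as deposited. It was 1.70 when libraries were scaled by the median of ratios.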

How the data were processed

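Messenger RNA was sequenced in 1 library each at 24, 36 and 48 h. CASAVA and HISAT2 2.1.0 are named in the submitters' processing notes. Program, genome build, annotation, strandedness and filters behind the FPKM values were not given in the sources used here. Per the file headers, the authors deposited FPKM values, 1 per gene and library. Columns were matched to times by the codes in the sample titles.

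Whole reads could not be recovered from low values (19 to 34 genes under 3 FPKM per pair of libraries). No common scaling tried put more than 36.8% of their ratios onto small whole-number fractions, with a tolerance of 0.2%. Only small whole numbers and a limited range of scalings were tried, so the check could fail where these genes had more reads. The depth is thus unknown. Differences are of log2(FPKM + 1), for the 5028 genes that reached 1 FPKM in any library; 12 genes were removed. No test across samples was possible. The genes named are the 3 enzymes, the 3 genes nearest to each by Euclidean distance of both interval differences, and the 2 tags on either side of each; 3 further tags were chosen after their values were seen. A list of other methanol pathway genes by symbol could not be applied, as 0 of 5040 tags matched the annotation used. The genes, lists and rules were chosen with earlier results of these data known. Alternatives were pseudocounts of 0.1 and 10, other filters, 3 scalings (median of ratios, a mean of log ratios trimmed by 30% of ratios and 5% of levels per side, and totals of 1000000), a 4-fold rule, and a distance of log2 levels. Counting, scaling and distances were tested on simulated data. Python 3.11.15, numpy 2.4.6, pandas 2.3.3 and matplotlib 3.10.9 were used.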

Additional observations from a re-analysis of the deposited data

How the results depend on the processing

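In all 45 recomputed differences of the 3 genes (2 pseudocounts and 3 scalings), the direction and the side of the 2-fold limit were those reported. For 36 h against 24 h they ranged from 1.44 to 1.70 for FLD1, 1.09 to 1.41 for FGH1 and 8.66 to 10.06 for FDH1, the lowest of FDH1 with a pseudocount of 10. With a 4-fold rule, stricter by construction, FLD1 at 1.46 and 1.16 in the successive intervals, FGH1 at 1.18 in the first and FDH1 at 1.17 in the second were no longer past the limit. Under that rule 131 genes of the table were higher and 261 lower at 36 h than at 24 h; at 48 h, 142 were higher and 149 lower than at 36 h, and 341 higher and 498 lower than at 24 h. The 42 other counts were within 1.5 times those reported. Of the 3 genes nearest to FLD1, 1 remained with a pseudocount of 0.1, 1 with a pseudocount of 10 and 0 when distances were taken over the 3 log2 levels, and of those nearest to FDH1, 0 remained with that distance. Cause was not tested. No paired analysis was possible because replicates are lacking at all 3 times, so no replicate could be left out. Unknown depth limits most the 24 h value of FDH1.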
